A study of Mus musculus with 6 samples.

Results

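Natural killer (NK) cells with little granzyme A were described among the leukocytes of mouse tumours. They were selected on measured values, and chosen by their UMIs in 6 single-cell libraries (unique molecular identifiers, each counted as 1 transcript): at least 500 UMIs and 200 genes per barcode, at most 10% mitochondrial UMIs, at least 2 UMIs of the NK receptor genes Ncr1 and Klrb1c together, at least 1 of Eomes, none of Cd3e, Cd3d and Csf1r, at most 1 of Mki67 and Top2a together, and under 10 Gzma UMIs per 10000 UMIs of the cell. This gave 286 Gzma-low NK cells among 49518 barcodes, of which 46891 passed the depth and mitochondrial limits. The same gate with 10 or more Gzma UMIs per 10000 held 3805 cells, called Gzma-high NK cells here. A further 2434 cells met the other conditions but had no Eomes UMI and were not used.

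The study sorted leukocytes from tumours of a breast cancer cell line, derived from brain metastases, that had been injected at 1 of 2 sites, the brain (BrM) or the mammary fat pad (MFP). All mice were C57BL/6J females of 10 to 12 weeks; the labels name no further treatment, allele or control tissue. Dissociated tumours were sorted for CD45-positive, DAPI-negative, RedDot1-positive cells, and 16000 cells were loaded per library for 10x Genomics 3′ version 3 sequencing. Each site had 3 libraries. The labels do not say whether these came from separate animals, and a p-value here covers the spread of these samples alone, which could be technical.

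NK cells kill infected or transformed cells by releasing perforin and granzymes and by death ligands, and they secrete interferon-gamma and chemokines. In mice they mature from cells that carry CD27, the interleukin-7 receptor and the transcription factor Tcf7 to cells that carry CD11b (Itgam) and Klrg1, a passage driven by Eomes, T-bet and Zeb2. Granzyme A is a granule protease that accumulates along this path, and group 1 innate lymphoid cells (ILC1), relatives of NK cells that reside in tissues, usually lack Eomes.

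The libraries held 50692794 to 70944735 UMIs. BrM 1, MFP 1 and MFP 2 were rich in lymphocytes, with a UMI of the macrophage receptor Csf1r in 2.38%, 1.85% and 0.801% of cells, against 44.3%, 38.5% and 50.6% in BrM 2, BrM 3 and MFP 3. Of all barcodes, 292 sequences occurred in more than 1 library. Among them were the barcodes of 4 Gzma-low cells, but no barcode was a Gzma-low cell in more than 1 library.

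There were 43, 19 and 19 Gzma-low cells across BrM 1 to 3 and 89, 102 and 14 across MFP 1 to 3. The summed depth was 275235, 99246 and 101339 UMIs in BrM, and in MFP it was 597091, 624637 and 87505 UMIs. MFP 3, BrM 2 and BrM 3 each held fewer than 20 cells, and single cells weigh heavily there. The median cell had 4676 to 6445 UMIs per library in the Gzma-low group and 3102 to 5072 UMIs in the Gzma-high group. Of the 286 cells, 93 had no Gzma UMI at all, 84 had under 5 per 10000, and 109 had 5 to under 10. Just outside the limit, 221 cells had 10 to under 20. A Gzma UMI was also found in 4.69% to 24.9% of B cells, which do not make granzyme A, at a median depth of 2638 to 3764.5 UMIs, so that 1 or a few Gzma UMIs in a cell did not by themselves show expression.

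The genes used for the choice are given as a description only. Summed Gzma (ENSMUSG00000023132, GRCm38 chromosome 13, 113093825 to 113100981, minus strand) was at 232 to 444 UMIs per 1000000 UMIs of a library's cells (CPM) in Gzma-low cells and 6946 to 10963 CPM in Gzma-high cells. Eomes, the T-box factor of NK cells, had a median over the 6 libraries of 297 CPM in Gzma-low cells and 421 CPM in Gzma-high cells. Ncr1, which encodes NKp46, was at 395 and 446 CPM, and Klrb1c, which encodes NK1.1, at 280 and 441 CPM in the same order of groups. The cells had been proposed as immature and marked by Car2, Nrarp and Spry2. Car2, a carbonic anhydrase, ran from 537 to 719 CPM in Gzma-low cells and from 429 to 613 CPM in Gzma-high cells, higher in 5 of 6 libraries (log2 fold change 0.34). Spry2, a feedback inhibitor of growth factor signalling, ran from 164 to 343 CPM in Gzma-low cells and 139 to 188 CPM in Gzma-high cells, higher in all 6 libraries (0.42). Nrarp, a feedback regulator of Notch signalling, went against the proposed label. It was at 60.5 to 238 CPM in Gzma-low cells and 132 to 246 CPM in Gzma-high cells, lower in all 6 libraries (-0.31). In the test between these groups described below, Spry2 passed and Nrarp did not. All 3 were expressed in both groups, with overlapping ranges for each, and the cells are therefore called by their Gzma level below.

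Markers of other cell types showed which transcripts came along with the gate. The 8 T cell markers summed to 309 to 814 CPM in Gzma-low cells and 601 to 714 CPM in Gzma-high cells. Most of this was the T cell receptor constant gene Trbc1, at 433 CPM over all Gzma-low cells and 435 CPM over all Gzma-high cells, while Trac was at 26.3 and 30.0 CPM and Cd4 was 0 in Gzma-low cells. The 8 macrophage and monocyte markers summed to 11.2 to 554 CPM in Gzma-low cells and 16.7 to 689 CPM in Gzma-high cells. They were highest in both groups in BrM 2, BrM 3 and MFP 3, the macrophage-rich libraries, with Apoe as the largest part.

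Of 8 dendritic cell markers, 6 were at 0 in Gzma-low cells (Flt3, Xcr1, Clec9a, Cd209a, Siglech and Ccr9), and the 8 summed to at most 30.2 CPM in Gzma-low cells and 57.3 CPM in Gzma-high cells. The 6 neutrophil markers reached 222 CPM in Gzma-low cells of BrM 2 and 412 CPM in Gzma-high cells. The erythroid markers were at 0 in Gzma-low cells. The 6 markers of group 2 innate lymphoid cells (ILC2) summed to 69.1 to 251 CPM in Gzma-low cells and 118 to 157 CPM in Gzma-high cells. The sum was higher in Gzma-low cells of BrM 1 (251 against 128 CPM) and MFP 3 (251 against 123 CPM), where Rora was also high, and lower in those of BrM 3. Most of it was Gata3, at 79.0 CPM over all Gzma-low cells and 89.6 CPM over all Gzma-high cells, and Rora, at 68.9 and 28.2 CPM in the same order of groups, while Il5 and Il13 were at 0 and Il1rl1 had 2 UMIs in Gzma-low cells. B cell markers summed to 128 to 171 CPM in Gzma-low cells and 98.0 to 120 CPM in Gzma-high cells, nearly all of it Ighm. Epithelial tumour markers summed to at most 50.9 CPM in Gzma-low cells and 33.2 CPM in Gzma-high cells, and microglia markers to at most 80.6 and 84.5 CPM, with P2ry12, Tmem119, Sall1, Fcrls and Sparc at 3 UMIs or fewer each in Gzma-low cells. The part of these transcripts was tested only by leaving out cells with a UMI of Cd3g, Cd79a, C1qa, C1qb, Lyz2, S100a8, S100a9 or Krt18. Cells with UMIs of Trbc1, Ighm, Apoe, Gata3 or Rora but of none of these genes stayed in. The part of those transcripts in the results below was not tested.

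Gzma-low cells made up 4.62%, 23.5% and 16.7% of the gated Eomes-positive NK cells in BrM 1 to 3 (95% exact binomial intervals 3.37 to 6.18, 14.8 to 34.2 and 10.3 to 24.8). In MFP 1 to 3 they made up 5.30%, 9.05% and 8.70% (4.28 to 6.49, 7.44 to 10.9 and 4.84 to 14.2). These intervals cover counting error only. BrM 2 and BrM 3 lay above every MFP library and BrM 1 below every MFP library. The mean was 14.9% ± 9.54 in BrM and 7.68% ± 2.07 in MFP (SD, n = 3 each), a difference of 7.23 percentage points (exact two-sided permutation p = 0.4, where 3 against 3 cannot go below 0.1). With each cell thinned to 3000 UMIs and gated again, the difference was 9.74 points (exact permutation p = 0.3), and without BrM 2 it was 2.96 points. As a share of all passing cells, Gzma-low cells were at 0.341% ± 0.175 in BrM and 0.843% ± 0.549 in MFP (SD, n = 3 each; exact permutation p = 0.4), so the direction depended on the denominator.

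**Figure D1:**
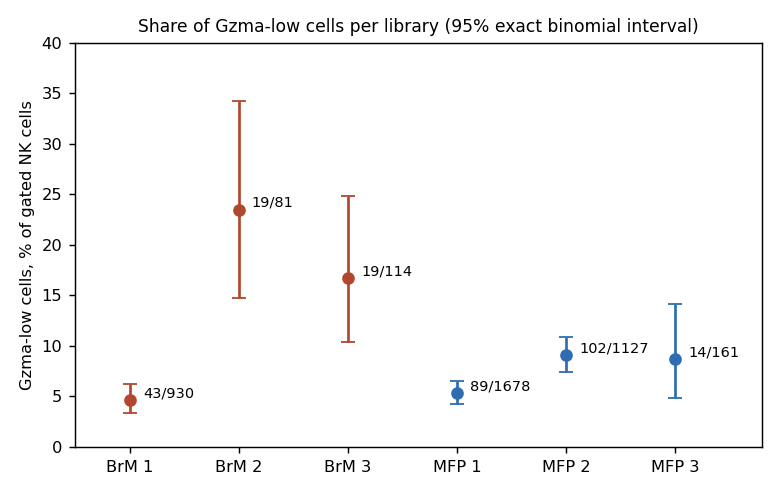
Share of Gzma-low cells among gated Eomes-positive NK cells in each library, in percent, with 95% exact binomial intervals; the numbers beside the points are Gzma-low cells over all gated cells. BrM 2 (23.5%) and BrM 3 (16.7%) lie above the MFP libraries (5.30% to 9.05%), and BrM 1 (4.62%) lies below them.

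Gzma-low and Gzma-high cells of the same library were compared on summed UMIs with edgeR's quasi-likelihood test, with the library as a block and the 9 gate genes left out. Of 5058 genes tested, 187 were higher in Gzma-low cells (3.7% of the genes tested) and 83 were lower (1.64%), at an adjusted p under 0.05. The median log2 fold change of all genes was 0.00. Of the 270 genes called, 167 had the same direction in all 6 libraries, and all 270 kept their sign in DESeq2, which called 195 of them. Of the lists described below, immature NK genes (8 of 14) and residency genes (6 of 9) had the most members that rose, and cytotoxic genes (6 of 14) and mature NK genes (5 of 11) the most that fell. The count was 139 without MFP 1 and 144 without MFP 2, the libraries with the most Gzma-low cells. It was 63 after thinning, 59 of which were among the 270, and 51 without the cells that carried UMIs of other cell types, 47 of which were among the 270. Within BrM 2, BrM 3 and MFP 3 alone 10 genes passed. Of the genes named by size of change, 20 could be tested there. Ltb, Ikzf2, Emb, Gzmb, Ccl4 and Ccl5 passed, and the other 14 did not but had the same direction. The naming rule had already asked for that direction in every library.

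**Figure D2:**
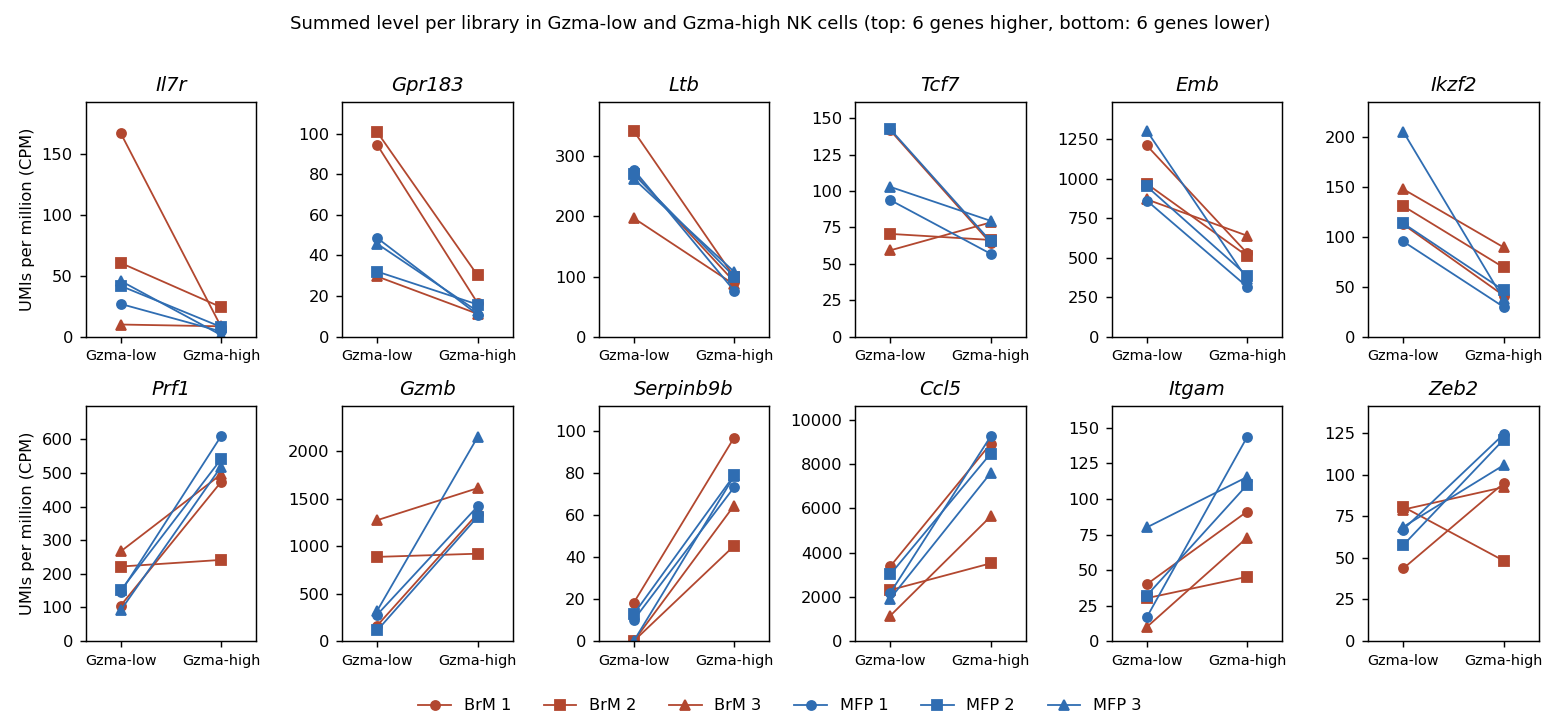
Summed level per library, in CPM, of 12 genes in Gzma-low and Gzma-high NK cells; each line joins the groups of 1 library. Ltb, Emb and Ikzf2 in Gzma-low cells lie above every Gzma-high library, Serpinb9b and Ccl5 lie below, and Zeb2 and Tcf7 show 1 library each with the opposite direction.

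Among genes of immature NK cells, 8 of the 14 tested rose and none fell, with a median log2 fold change of 0.57, beside 0.00 for all genes. Il7r (ENSMUSG00000003882, GRCm38 chromosome 15, 9505788 to 9530176, minus strand), the interleukin-7 receptor chain that sustains lymphoid progenitors, had 167, 60.5 and 9.87 CPM in Gzma-low cells of BrM 1 to 3 and 26.8, 41.6 and 45.7 CPM in those of MFP 1 to 3. Gzma-high cells of the same libraries had 8.16, 24.1 and 8.40 CPM in BrM and 4.18, 7.89 and 1.24 CPM in MFP. Every library was higher in its Gzma-low cells, BrM 1 by the widest gap and BrM 3 by little (log2 fold change 3.14, SE 0.32, edgeR adjusted p = 2.73e-07). Without BrM 1 the log2 fold change was 2.43. Few UMIs lay behind these levels. The Gzma-low value of BrM 3 was 1 UMI. A single cell held 18 of 46 Il7r UMIs in BrM 1, 5 of 6 in BrM 2, 4 of 16 in MFP 1, 8 of 26 in MFP 2 and 3 of 4 in MFP 3. Il7r could be tested in 8 alternative settings and passed in each, while Ltb could be tested in 18.

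Ltb (ENSMUSG00000024399, chromosome 17, 35194439 to 35196320, plus strand), the membrane lymphotoxin by which lymphoid cells shape stroma, had 272, 343 and 197 CPM in Gzma-low cells of BrM 1 to 3 and 278, 271 and 263 CPM in those of MFP 1 to 3, against 91.6, 99.6 and 86.8 CPM and 76.6, 100.02 and 108 CPM in Gzma-high cells. The groups did not overlap, and the 6 Gzma-low values lay close together (log2 fold change 1.63, SE 0.11, edgeR adjusted p = 1.65e-10). Emb, an adhesion molecule of the immunoglobulin family, was at 861 to 1303 CPM (median 959) in Gzma-low cells and 315 to 638 CPM (median 448) in Gzma-high cells, again without overlap (1.29, SE 0.10, adjusted p = 5.06e-09). Gpr183, the oxysterol receptor that positions lymphocytes, was at 29.6 to 101 CPM in Gzma-low cells and 10.9 to 30.2 CPM in Gzma-high cells, higher in all 6 libraries (1.92, SE 0.23, adjusted p = 4.26e-06); it was 1.11 without the cells lacking Gzma.

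Tcf7, the Wnt-pathway factor of early NK cells, rose with a log2 fold change of 0.89 (SE 0.14, edgeR adjusted p = 0.000196). It was higher in 5 libraries, at up to 142 CPM in Gzma-low cells and up to 79.5 CPM in Gzma-high cells, and lower in BrM 3. The surface protein Cd7 (0.76), the chemokine Xcl1 (0.54) and the activation marker Cd69 (0.54) also rose. Cd27 itself had a log2 fold change of 0.37 and did not pass (adjusted p = 0.0731). Kit, the stem cell factor receptor, was too low for the test, at 43.6, 10.1 and 0 CPM in Gzma-low cells of BrM 1 to 3 and 40.2, 32.0 and 114 CPM in those of MFP 1 to 3, against 6.03 to 16.8 CPM in Gzma-high cells. It was higher in 5 libraries and undetected in the 19 Gzma-low cells of BrM 3. In MFP 3 a single Gzma-low cell held 8 of its 10 UMIs.

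Of 11 mature NK genes tested 5 fell and none rose (median -0.56). Itgam (ENSMUSG00000030786, chromosome 7, 128062640 to 128118491, plus strand), the CD11b integrin chain that marks mature NK cells, was at 40.0, 30.2 and 9.87 CPM in Gzma-low cells of BrM 1 to 3 and 16.7, 32.0 and 80.0 CPM in those of MFP 1 to 3, against 91.2, 45.3 and 72.8 CPM and 144, 110 and 116 CPM in Gzma-high cells. It was lower in all 6 libraries, although MFP 3 alone reached into the Gzma-high range (log2 fold change -1.86, SE 0.22, edgeR adjusted p = 3.63e-06). Within BrM 2, BrM 3 and MFP 3 alone Itgam had a log2 fold change of -0.93 and did not pass (adjusted p = 0.560). Klrg1, an inhibitory receptor of terminal NK cells, was below the test's filter. It was at 0 to 8.00 CPM in Gzma-low cells and 15.1 to 51.0 CPM in Gzma-high cells, with no overlap. Gzma-low cells of BrM 2, BrM 3 and MFP 3 had no Klrg1 UMI, in sums of 87505 to 101339 UMIs. Counts of 0 in such small sums cannot place the level below every Gzma-high library. Ly6c2 (-1.69), a surface marker of resting mature NK cells, and Zeb2 (-0.79), the repressor needed for late maturation, also fell, but Ly6c2 was higher in 2 libraries and Zeb2 in 1. Irf8 (-0.68) and Rap1b (-0.50) made up the 5, while the T-box factor Tbx21 did not pass (-0.09, adjusted p = 0.808).

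Counted per cell, the pattern of a Cd27 UMI and no Itgam UMI held 58.1%, 47.4% and 52.6% of Gzma-low cells from BrM 1 to 3 and 47.2%, 48.0% and 28.6% in MFP 1 to 3. In Gzma-high cells it held 28.3%, 35.5% and 25.3% in BrM and 19.6%, 24.9% and 21.8% in MFP. Each library had the higher share in its Gzma-low cells, which were also deeper. A missing UMI does not show a missing transcript, so the pattern does not by itself name a stage. Neither gene had a UMI in 33.2% to 50.5% of Gzma-high cells per library. Cells of at least 3000 UMIs were then thinned to 3000 UMIs and gated again on the thinned counts, so that cells could enter or leave either group. This left 6 to 43 Gzma-low cells per library, not all of them the same cells as before. After thinning this pattern held 42.9%, 33.3% and 28.6% of the Gzma-low cells of BrM 1 to 3. It held 40.6%, 27.9% and 0% of those of MFP 1 to 3, where MFP 3 had 0 of 6 cells, which allows a share of up to 50%. In thinned Gzma-high cells it held 23.3%, 37.5% and 23.7% in BrM and 13.6%, 20.7% and 14.1% in MFP. The share was then higher in Gzma-low cells of 4 libraries and lower in those of BrM 2 and MFP 3. After thinning, a Cd27 UMI was found in a smaller share of Gzma-low than of Gzma-high cells in the same 2 libraries (33.3% against 43.8% in BrM 2 and 16.7% against 21.1% in MFP 3). The thinned share with an Itgam UMI was 3.12% to 33.3% in Gzma-low cells and 13.2% to 36.6% in Gzma-high cells, lower in Gzma-low cells of every library but BrM 3. Of B cells, 6 of 398, 2 of 64 and 12 of 78 had an Itgam UMI in BrM 1 to 3 and 1 of 181, 1 of 222 and 8 of 62 in MFP 1 to 3, so that the share in Gzma-low cells of BrM 3, 5.26% without thinning, was at the background.

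Of 14 granule and death ligand genes tested, 6 fell and none rose in Gzma-low cells (median -0.21). Gzma was not among the 14. Prf1 (ENSMUSG00000037202, chromosome 10, 61297833 to 61304680, plus strand), which encodes perforin, was at 105, 222 and 266 CPM in Gzma-low cells of BrM 1 to 3 and 146, 150 and 91.4 CPM in those of MFP 1 to 3, against 473, 241 and 496 CPM and 609, 541 and 518 CPM in Gzma-high cells. It was lower in all 6 libraries, with the narrowest gap in BrM 2 (log2 fold change -1.70, SE 0.15, edgeR adjusted p = 3.46e-08). Within BrM 2, BrM 3 and MFP 3 alone the log2 fold change was -1.01 and did not pass (adjusted p = 0.0615), and within BrM 1, MFP 1 and MFP 2 alone it was -1.95.

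Gzmb (ENSMUSG00000015437, chromosome 14, 56258838 to 56262260, minus strand), the granule protease granzyme B, was at 163, 887 and 1273 CPM in Gzma-low cells of BrM 1 to 3 and 278, 112 and 320 CPM in those of MFP 1 to 3, against 1341, 920 and 1610 CPM and 1418, 1308 and 2147 CPM in Gzma-high cells. Gzma-low cells were lower in all 6 libraries, by little in BrM 2 and BrM 3 (-1.98, SE 0.26, edgeR adjusted p = 1.50e-05). In those 2 libraries 1 cell each held most Gzmb UMIs, 84 of 88 in BrM 2 and 88 of 129 in BrM 3. Within BrM 2, BrM 3 and MFP 3 alone the log2 fold change was -0.84, and within BrM 1, MFP 1 and MFP 2 alone it was -2.84.

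Serpinb9b, a serpin of the family that protects killer cells from their own granzymes, was at 0 to 18.2 CPM in Gzma-low cells and 45.3 to 96.6 CPM in Gzma-high cells (log2 fold change -2.80, SE 0.25, edgeR adjusted p = 3.46e-08). Its relative Serpinb9, at 331 to 658 and 749 to 975 CPM, and the granule protein Nkg7, at 1580 to 1920 and 2142 to 3036 CPM in the same order of groups, did not overlap between the groups either, with log2 fold changes of -0.59 and -0.53. Fas ligand fell too (Fasl, -0.68). The granule protease Ctsw (-0.08, adjusted p = 0.640), the granule proteoglycan Srgn (-0.04), the membrane protein Lamp1 (0.04) and the death ligand Tnfsf10 (0.64, adjusted p = 0.122) did not pass. Granzyme C did not follow granzyme B. Gzmc was at 10.1 to 1569 CPM in Gzma-low cells and 33.5 to 1299 CPM in Gzma-high cells (0.40, adjusted p = 0.669), and 126 of its 159 UMIs in Gzma-low cells of BrM 3 came from 1 cell.

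Chemokines and cytokines divided. Of 8 tested, Ccl5 (log2 fold change -1.59, SE 0.11, edgeR adjusted p = 3.35e-10), Ccl4 (-1.74) and Ccl3 (-1.40), which attract T cells and monocytes, fell, while Ltb and Xcl1, the ligand of the dendritic cell receptor Xcr1, rose (median -0.10). Ccl5 was at 1145 to 3375 CPM (median 2241) in Gzma-low cells and 3515 to 9248 CPM (median 8034) in Gzma-high cells, and Ccl4 at 72.7 to 377 CPM and 576 to 882 CPM in the same order. Neither overlapped. After thinning Ccl4 still passed at -1.08, while Ccl3 did not (-0.62, edgeR adjusted p = 0.290); within BrM 2, BrM 3 and MFP 3 alone Ccl3 did not pass either (-1.15, adjusted p = 0.290). Ifng, the NK cytokine interferon-gamma, had 29.1 to 173 CPM in Gzma-low cells and 60.3 to 216 CPM in Gzma-high cells, higher in 3 libraries and lower in 3 (-0.24, adjusted p = 0.562).

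Of 9 genes linked to ILC1 and tissue residency, 6 rose and none fell (median 0.56). They were the membrane channel Tmem176a (log2 fold change 2.00), the phosphatase Inpp4b (1.49), the receptor Cd160 (1.05), the TGF-beta feedback regulator Ldlrad4 (0.68), the aryl hydrocarbon receptor Ahr (0.56) and the cytokine feedback regulator Socs3 (0.41). Cd160 was at 57.1 to 217 CPM in Gzma-low cells and 24.8 to 75.4 CPM in Gzma-high cells, higher in all 6 libraries. The integrin Itga1 (CD49a), the usual surface marker of ILC1, was at 54.5 to 137 CPM in Gzma-low cells and 56.7 to 145 CPM in Gzma-high cells (0.42, not passing). Zfp683, the residency factor Hobit, had no UMI in any Gzma-low cell, and the residency chemokine receptor Cxcr6 was at no more than 14.5 CPM there and 12.1 CPM in Gzma-high cells. All 9 tested genes had a positive log2 fold change, and 8 had an unadjusted p under 0.05 in edgeR. After thinning, the share of cells with an Itga1 UMI was higher in Gzma-low cells of every library but BrM 2. It ran from 16.7% to 33.3% in Gzma-low cells and from 10.4% to 31.25% in Gzma-high cells. A Cxcr6 UMI was present in at most 4 Gzma-low cells of a library, too few to compare shares. The genes that passed did not include those most used to name ILC1. All the cells were chosen to carry Eomes, and whether ILC1 lay among them was not tested.

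Of 24 transcription factors, 4 rose and 3 fell (median -0.05). Ikzf2, which encodes Helios and is expressed by immature NK cells, was at 95.5 to 206 CPM (median 122) in Gzma-low cells and 29.7 to 89.6 CPM (median 43.8) in Gzma-high cells, with no overlap (log2 fold change 1.49, SE 0.16, edgeR adjusted p = 4.49e-07). The innate lymphoid factor Rora rose by 1.37 and Tox, needed for early NK development, by 0.68. Zeb2, Irf8 and Id2 (-0.35) fell. The ILC2 and T cell factor Gata3 (-0.13), the NK lineage factor Nfil3 (-0.26) and the memory-associated repressor Bach2 (0.50) did not pass.

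Of 6 Ly49 receptors, which read MHC class I and are gained during maturation, all had a negative log2 fold change (median -0.28), and Klra9 alone passed (-0.86); near-identical Ly49 genes can share reads. Among 18 NKG2, NKR-P1 and natural cytotoxicity receptors and adaptors 4 rose and 2 fell (median -0.02). The nectin-like ligand receptor Crtam (1.17), the inhibitory receptor chain Klrc1 (NKG2A, 0.66), the activating receptor Cd226 (DNAM-1, 0.60) and Klrk1 (NKG2D, 0.31) rose, and the signalling adaptor Fcer1g (-0.33) and Klre1 (-0.28) fell. Klrc1 was at 118 to 254 CPM in Gzma-low cells and 92.4 to 134 CPM in Gzma-high cells. Of 3 inhibitory receptors tested, Cd160 rose, and Cd96 (0.48) and Lilrb4a (0.23) did not pass.

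For cytokine receptors and STAT feedback, 3 genes of 17 rose and 4 fell. Besides Il7r and Socs3, the interleukin-21 receptor Il21r rose (log2 fold change 0.88), while the interleukin-18 receptor chain Il18rap (-0.66), the survival factor Bcl2 (-0.41), Ifngr1 (-0.37) and the interleukin-15 receptor chain Il2rb (-0.27) fell. Of 16 homing and adhesion genes 4 fell and none rose (median -0.15), and they were Itgam, its partner chain Itgb2 (-0.76), the sphingosine phosphate receptor S1pr4 (-0.73) and the integrin Itga4 (-0.48). The chemokine receptors Ccr2 (0.17) and Cxcr4 (-0.20) did not pass.

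Notch genes did not move as a group: of 13 tested, the DNA-binding factor Rbpj rose (log2 fold change 0.44, edgeR adjusted p = 0.0476), none fell, and the median was -0.18. The Notch target Hes1 was lower in all 6 libraries, at 0 to 113 CPM in Gzma-low cells and 69.4 to 129 CPM in Gzma-high cells, and did not pass (-0.55, adjusted p = 0.0805). Of 6 Ras-MAPK feedback genes Spry2 rose and the phosphatase Dusp2 fell (-0.48), and of 12 TGF-beta response genes Ldlrad4 rose. No gene passed among 19 type I interferon response genes (median 0.08) or 15 interferon-gamma response genes (median 0.07) in edgeR; 6 and 3 of them had an unadjusted p under 0.05, and DESeq2 called 0 in both lists. Of 11 proliferation genes Dut, which clears dUTP, rose (0.69), after cells with 2 or more Mki67 and Top2a UMIs had been left out by the gate. Of 16 glycolysis and hypoxia genes the angiogenic factor Vegfa rose (0.51). Of 20 immediate-early and dissociation stress genes the transcription factors Fosb (0.98) and Fos (0.69) rose and none fell (median 0.18); Fosb did not pass without the library block (edgeR adjusted p = 0.0555). Tissue digestion is known to induce this list, and its part in the other differences was not tested.

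**Figure D3:**
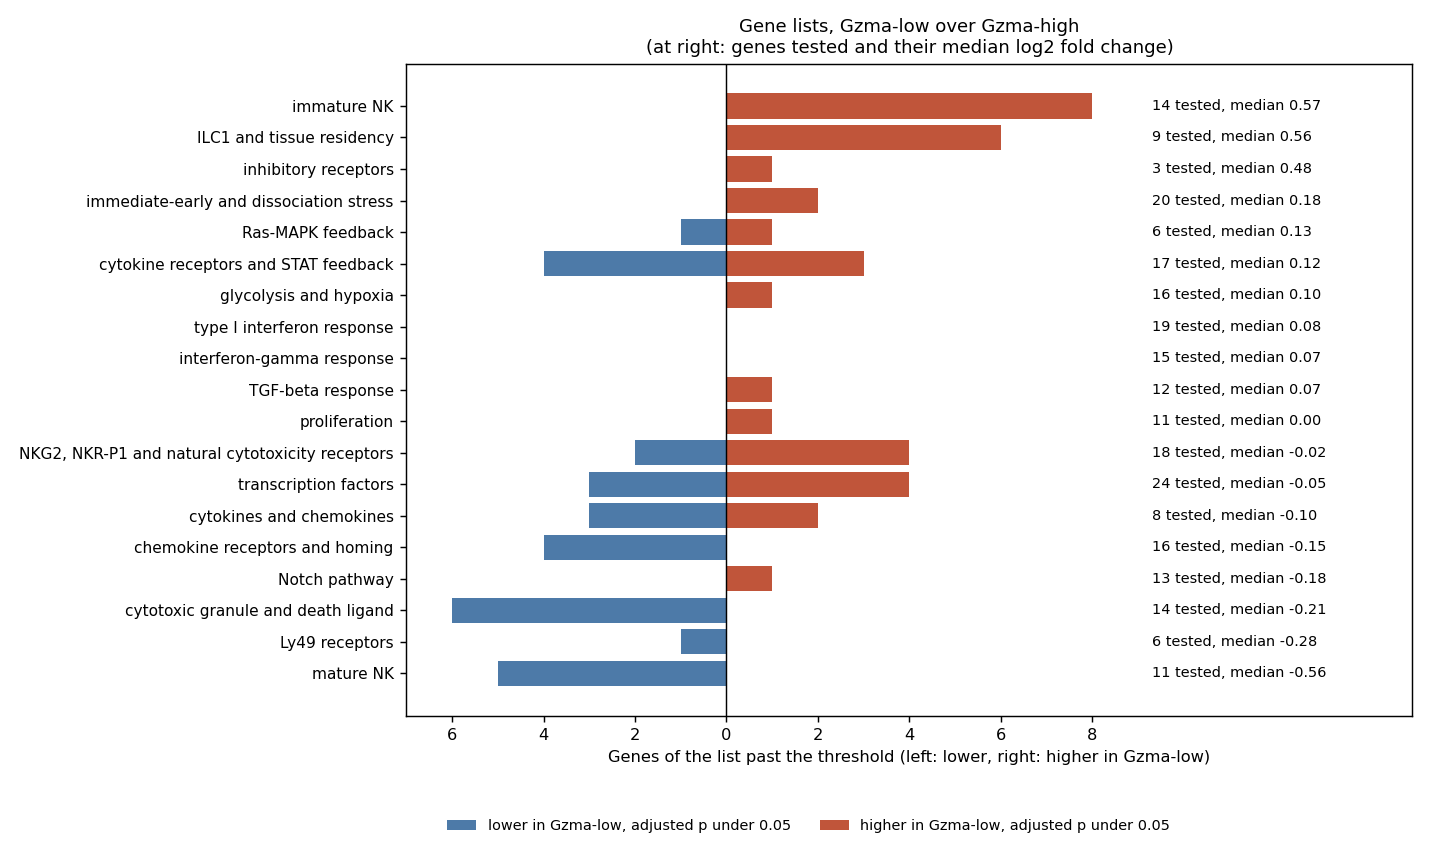
Number of genes per list that passed in Gzma-low over Gzma-high NK cells, lower to the left and higher to the right, with the number tested and the median log2 fold change of each list. Immature NK genes (8 of 14 higher) and residency genes (6 of 9 higher) stand opposite mature NK genes (5 of 11 lower) and cytotoxic genes (6 of 14 lower).

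Among other genes with the largest changes in the same direction in all 6 libraries, Odc1, the first enzyme of polyamine synthesis, was at 194 to 315 CPM in Gzma-low cells and 123 to 221 CPM in Gzma-high cells (log2 fold change 1.08, SE 0.11, edgeR adjusted p = 3.64e-07). The membrane protein gene Ms4a4c (1.20), Parp8 (0.93) of the ADP-ribosyltransferase family, the actin-capping protein Capg (0.84) and Gch1, the first enzyme of tetrahydrobiopterin synthesis (0.83), rose. The call was lost for Parp8 without MFP 1 (edgeR adjusted p = 0.0823) and for Gch1 without MFP 2 (0.0952). Odc1 was at 0.68 without the cells lacking Gzma. Fgl2, a fibrinogen-like immunoregulator, was at 36.3 to 149 CPM in Gzma-low cells and 126 to 198 CPM in Gzma-high cells (-1.17, SE 0.15, adjusted p = 1.01e-05). The adhesion receptor Adgre5 (CD97) and Crybg1 fell by 0.77 each on the log2 scale. Crybg1 lost the call without BrM 1 or MFP 2 (edgeR adjusted p = 0.102 and 0.0947).

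The MHC class II chain gene H2-Aa, a product of antigen-presenting cells, was also lower in all 6 libraries, at 6.70 to 128 CPM in Gzma-low cells and 34.7 to 404 CPM in Gzma-high cells (log2 fold change -1.06, edgeR adjusted p = 0.00600). The call was lost without MFP 1 (adjusted p = 0.0564), and the direction turned when the Gzma limit was set at 20 (1.04) and when cells were thinned (0.58). In Gzma-high cells it was highest in BrM 2, one of the macrophage-rich libraries.

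Within the gate, levels changed with Gzma in steps (description over pooled cells, no test). Over cells with 0, under 5, 5 to under 10, 10 to under 20, 20 to under 50 and 50 or more Gzma UMIs per 10000, Ltb was at 341, 242, 245, 202, 165 and 56.4 CPM and Emb at 1324, 780, 862, 703, 629 and 300.4 CPM. Over the same steps Prf1 was at 93.6, 155, 189, 221, 274 and 654 CPM and Itgam at 14.98, 32.0, 37.7, 69.0, 80.8 and 134 CPM. Ltb, Emb and Prf1 had no break at the limit of 10, while Itgam went from 37.7 to 69.0 CPM across it. Gzmb was at 105, 406, 351, 324, 438 and 1758 CPM, low in the first step, level over the next 4 and high in the last. Il7r stood apart, with 152 CPM in cells without Gzma and 16.0, 13.1, 10.1, 12.5 and 4.33 CPM in the other steps, and so did Gpr183, with 105 CPM in the first step and 11.05 to 37.7 CPM in the others. Cd27 was at 155 to 178 CPM in all steps but the last, where it was at 111 CPM. The mature NK gene Ly6c2 had no steady course, at 80.5, 44.5, 20.3, 59.6, 59.1 and 211 CPM over the steps.

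**Figure D4:**
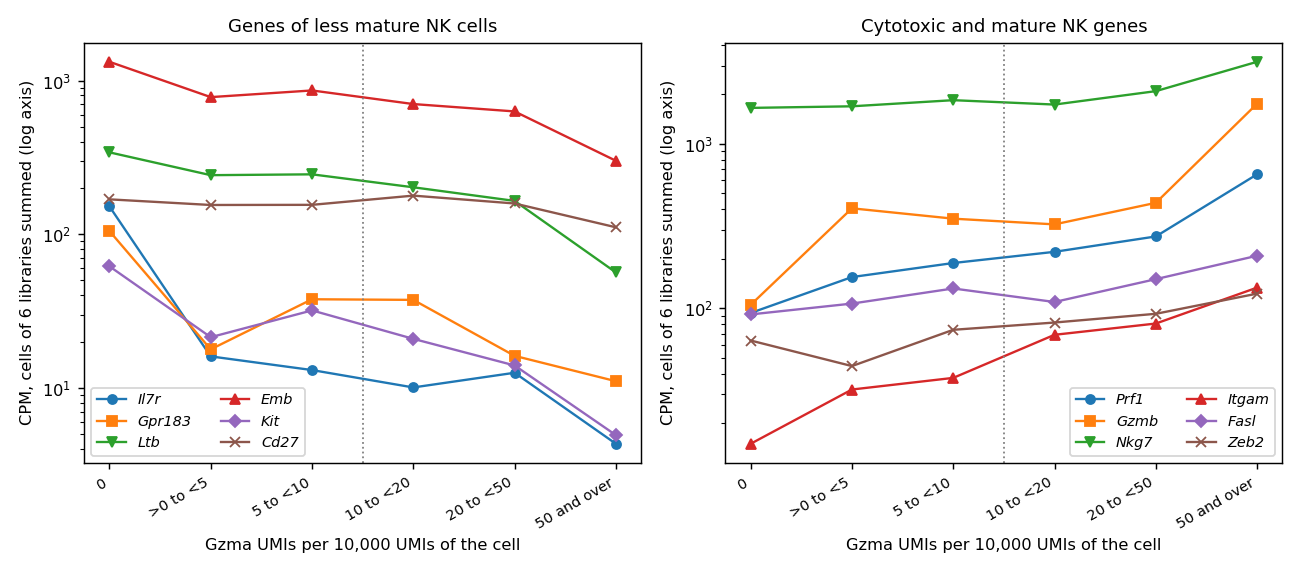
Level of 12 genes, in CPM on a log axis, in NK cells of all 6 libraries pooled by their Gzma UMIs per 10000 UMIs; the dotted line marks the limit of 10. Ltb and Emb decline and Prf1 and Itgam climb across the steps, while Il7r is at 152 CPM in cells without Gzma UMIs and at most 16.0 CPM in the other steps.

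The Gzma-low cells were not uniform. Those without a Gzma UMI numbered 18, 11 and 5 across BrM 1 to 3 and 20, 34 and 5 across MFP 1 to 3. Besides Il7r they held more Rora (142 CPM, against 37.6 CPM in Gzma-low cells with a Gzma UMI), Tmem176a (84.3 against 10.4 CPM) and Car2 (809 against 525 CPM), and less Prf1 (93.6 against 173 CPM). These are pooled values with no test. Il7r, Rora, Tmem176a and Prf1 had this direction in all 6 libraries and Car2 in all but MFP 3. The mature NK gene Ly6c2 was also higher in the cells without Gzma (80.5 against 31.2 CPM pooled). It was not higher in MFP 2 (27.6 against 29.3 CPM) or in MFP 3, where both values were 0. Libraries disagreed on Nrarp (118 against 197 CPM pooled), which was higher in the cells without Gzma in BrM 2 and BrM 3, and on Gzmb (105 against 376 CPM pooled), which was higher in them in BrM 1 (247 against 112 CPM). The pooled 376 CPM of Gzmb rested largely on the 1 cell each of BrM 2 and BrM 3 named above. Median depth was 5483 UMIs in the cells without Gzma and 6105 UMIs in the others.

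An Il7r UMI was present in 33 of the 286 cells, 14, 2 and 1 across BrM 1 to 3 and 7, 7 and 2 across MFP 1 to 3. As shares these were 32.6%, 10.5% and 5.26% in BrM and 7.87%, 6.86% and 14.3% in MFP, and in Gzma-high cells of the same libraries 2.71%, 8.06% and 2.11% in BrM and 1.83%, 3.22% and 0.680% in MFP. Of B cells, mostly without Il7r once mature, 10 of 398, 1 of 64 and 1 of 78 had an Il7r UMI in BrM 1 to 3 and 2 of 181, 5 of 222 and 6 of 62 in MFP 1 to 3. BrM 1 stood highest by a wide margin. The 33 cells kept Ncr1 at 435 CPM, against 390 CPM in the Gzma-low cells without Il7r, Eomes at 243 against 330 CPM and Tbx21 at 122 against 105 CPM. They had no UMI of Il1rl1, and Gata3 at 60.8 against 81.5 CPM. Ltb (421 against 253 CPM), Ikzf2 (271 against 93.6 CPM), Cd7 (365 against 234 CPM) and Rora (229 against 47.1 CPM) were higher in them, and Prf1 (70.2 against 160 CPM), Gzmb (60.8 against 327 CPM) and Itgam (4.68 against 32.5 CPM) lower, without a test. With 2, 1 and 2 such cells in BrM 2, BrM 3 and MFP 3, these values rest mainly on BrM 1, MFP 1 and MFP 2. All 3 of these libraries had the pooled direction for Ltb, Ikzf2, Cd7, Prf1, Gzmb and Itgam, but in MFP 1 Rora was level (40.0 against 40.2 CPM). Of the ILC1 and residency list, Tmem176a (145 against 17.2 CPM) and Tmem176b (112 against 17.8 CPM) were higher with an Il7r UMI in these libraries too. Ckb (103 against 13.4 CPM) and Cxcr6 (37.4 against 3.82 CPM, 8 against 6 UMIs) were higher pooled. In cells with an Il7r UMI, Ckb was 0 in MFP 1 and Cxcr6 was 0 in MFP 2. Itga1 was lower pooled (74.8 against 99.9 CPM) but higher in MFP 2. None of this was tested. The mature NK gene Ly6c2 did not follow Prf1 and Itgam. It was higher in the cells with an Il7r UMI (168 against 29.3 CPM pooled). BrM 1 (153 against 5.44 CPM) and MFP 1 (240 against 40.2 CPM) had that direction, and MFP 2 the opposite (0 against 30.9 CPM). When the 93 cells without Gzma were left out, 175 genes passed against Gzma-high cells, 156 of them among the 270, and Il7r was too low to be tested.

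Promoters of the named genes were read for motifs because the E-box and the T-box are bound by Zeb2 and by Eomes and T-bet. RefSeq windows (GRCm38.p6) from 250 bases before to 50 after the start existed for 19 of the 24 named genes, some with more than 1 start. The E-box CACCTG or its reverse CAGGTG was in 5 of 12 windows of the 11 genes higher in Gzma-low cells and in 3 of 10 windows of the 8 genes lower, against 20.2% of all 32851 windows. The T-box core GGTGTG or its reverse CACACC was in 6 of 12 and 3 of 10, against 19% of all, and the TCF core CTTTGA or TCAAAG in 2 of 12 and 3 of 10, against 16%. These are counts of windows and not of genes. Crybg1 was counted more than once for the E-box and the T-box core, and Cd160 more than once for the T-box core. In the Ltb window the E-box and the T-box core overlapped on the same bases, an arrangement in 1.8% of all windows. It was found in genes of both directions. The window of Emb, higher in Gzma-low cells, held 1, and a window of Crybg1, lower in them, held 2. The Prf1 window held 1 E-box and neither of the other motifs. The Ltb and Prf1 windows lie at chr17:35194257-35194556 (plus strand) and chr10:61297586-61297885 (plus strand), and capitals mark the motif letters. A match is a description of letters and not a binding site.
Ltb: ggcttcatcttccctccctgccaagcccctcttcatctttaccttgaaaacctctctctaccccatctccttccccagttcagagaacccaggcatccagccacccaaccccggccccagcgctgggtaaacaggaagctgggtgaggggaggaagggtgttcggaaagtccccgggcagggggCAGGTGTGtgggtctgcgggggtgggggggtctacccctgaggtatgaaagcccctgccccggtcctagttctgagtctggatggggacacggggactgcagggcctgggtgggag
Prf1: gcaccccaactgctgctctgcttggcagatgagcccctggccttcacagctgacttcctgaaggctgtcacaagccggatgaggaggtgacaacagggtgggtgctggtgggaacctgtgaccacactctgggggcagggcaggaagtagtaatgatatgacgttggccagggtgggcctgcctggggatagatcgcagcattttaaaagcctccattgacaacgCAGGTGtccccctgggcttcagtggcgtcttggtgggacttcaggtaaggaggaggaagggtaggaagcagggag

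BrM was compared with MFP in the Gzma-low cells to ask whether they differ between an intracranial and an extracranial tumour. Few genes passed, and with all 6 libraries none of them was in any of the 19 gene lists. With all 6 libraries, edgeR called 1 of 2613 genes (0.0383%), 180 had an unadjusted p under 0.05, and DESeq2 called 0. Between the 3 BrM and the 3 MFP libraries 354 genes did not overlap (13.5% of those tested). The fit called 4 genes without BrM 1, 0 without BrM 2, 5 without BrM 3 and 2 without MFP 3. All 6 could be used only by lowering the minimum from 20 to 10 cells per library, a choice made after the cell numbers were seen.

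The 1 gene was Gm42418, a predicted gene known to overlap ribosomal RNA sequence. It was at 5101, 2771 and 3049 CPM over BrM 1 to 3 and 8598, 6847 and 8845 CPM over MFP 1 to 3, without overlap (log2 fold change -1.13, SE 0.16, edgeR adjusted p = 0.00188). In Gzma-high cells its log2 fold change was -1.005 and did not pass (adjusted p = 0.429). The companion transcript AC149090.1 was at 98.1, 80.6 and 69.1 CPM in BrM and 144, 173 and 194 CPM in MFP, also without overlap, and did not pass (-0.90, adjusted p = 0.604). Whether depletion of ribosomal RNA differed between the libraries was not tested.

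The other genes with the lowest p did not pass. Cd69, an activation and retention marker, was at 145, 80.6 and 88.8 CPM in Gzma-low cells of BrM 1 to 3 and 206, 266 and 263 CPM in those of MFP 1 to 3 (log2 fold change -1.06, SE 0.26, edgeR adjusted p = 0.514). Nfkbiz, a nuclear regulator of NF-kB, was at 69.0, 50.4 and 9.87 CPM in BrM and 157, 109 and 183 CPM in MFP (-1.43, adjusted p = 0.514), and the activating NKR-P1 receptor gene Klrb1a at 138, 171 and 128 CPM in BrM and 62.0, 70.4 and 114 CPM in MFP (1.02, adjusted p = 0.553). The peroxidase Prdx1 (0.88), the heparan sulfatase Sulf2 (-1.15) and the transcription factor Zbtb20 (-0.98) did not overlap between the sites either. Each of these 6 genes had all BrM libraries on one side of all MFP libraries, a property shared by 13.5% of the genes tested. Gzmb was at 163, 887 and 1273 CPM in BrM and 278, 112 and 320 CPM in MFP (1.76, adjusted p = 0.604), with most UMIs of BrM 2 and BrM 3 from 1 cell each, as above.

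**Figure D5:**
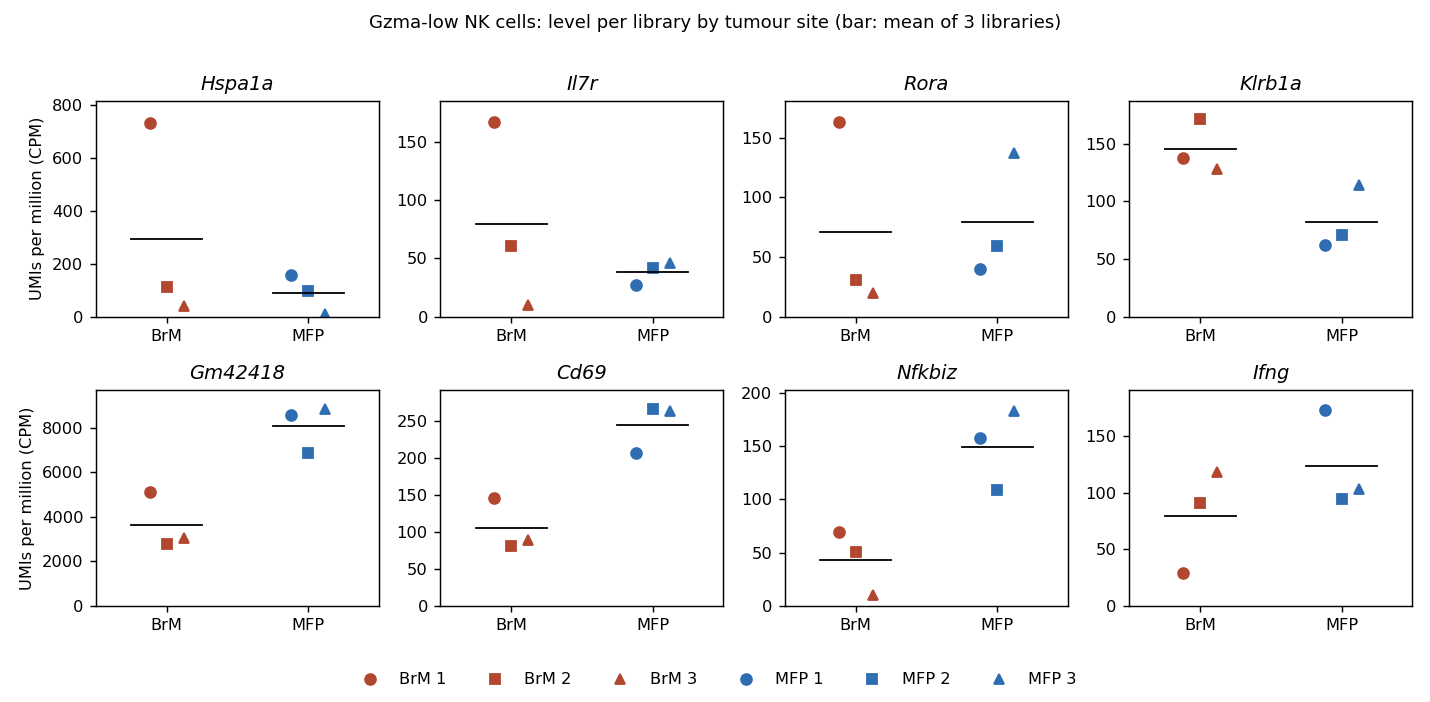
Level of 8 genes in Gzma-low NK cells of each library, in CPM, by tumour site; points are libraries and bars are means of 3 libraries. Gm42418, Cd69 and Nfkbiz have every BrM library below every MFP library, and Klrb1a has the opposite order, while Hspa1a and Rora are high in BrM 1 alone among the BrM libraries and Il7r is highest in BrM 1, with BrM 2 next.

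Only BrM 1, MFP 1 and MFP 2 held at least 20 Gzma-low cells. In these 3 libraries, with the lone BrM library assumed to vary like the MFP libraries, 25 of 6477 genes passed in edgeR (0.386%), 11 higher and 14 lower, 466 had an unadjusted p under 0.05, and 1 passed in DESeq2. The stress chaperone Hspa1a had 734, 111 and 39.5 CPM over BrM 1 to 3 and 156, 97.7 and 11.4 CPM over MFP 1 to 3. BrM 1 alone was high, and BrM 2 and BrM 3 lay within the MFP range (log2 fold change 2.53 over the 3 libraries, and 1.68 over all 6, edgeR adjusted p = 0.604). Its relatives Hsph1 (1.60), Hspa1b (1.14) and Hsp90aa1 (0.56) were called too. Hsp90aa1 was at 1337, 967 and 1332 CPM in BrM and 896, 911 and 857 CPM in MFP, without overlap. Dissociation stress is known to induce these chaperones, and its part was not tested.

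Il7r (2.27) and Rora (1.70), the genes of the Il7r-positive cells above, were called higher in BrM 1 as well. Il7r fell below the filter with all 6 libraries, and Rora was at 163, 30.2 and 19.7 CPM in BrM and 40.2, 59.2 and 137 CPM in MFP, so that BrM 1 and MFP 3 were high and the sites overlapped. The NKR-P1 receptor gene Klrb1b (1.26) and the signalling adaptor Dapp1 (1.57) were higher too, Dapp1 without overlap over all 6 libraries. Lower in BrM 1 were Gzmc (-3.23), Ifng (-2.19), Ccl4 (-1.59), Cd74 (-1.88), the adhesion molecule Icam1 (-1.16), the activating Ly49H receptor gene Klra8 (-0.79) and the G-protein regulator Rgs1 (-0.69). Of these, Klra8 was at 302, 403 and 178 CPM in BrM and 457, 576 and 423 CPM in MFP, without overlap. Gzmc turned round with all 6 libraries (1.39), where 1 cell of BrM 3 held most of its UMIs. Of the 22 named genes, the 19 that could be tested with all 6 libraries did not pass in edgeR without covariates. With the kind of library (lymphocyte-rich or macrophage-rich) as a term, 3 genes passed, Gm42418, Hspa1a (2.52, edgeR adjusted p = 7.48e-07) and Hsph1 (1.57, adjusted p = 0.0151).

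Whether the difference between Gzma-low and Gzma-high cells depended on the site was tested as an interaction. Only 1 of 5058 genes passed in edgeR (0.0198%), 205 had an unadjusted p under 0.05, and none passed in DESeq2. The gene was Cd74, the invariant chain of MHC class II. It was at 25.4, 131 and 109 CPM in Gzma-low cells of BrM 1 to 3 against 157, 640 and 238 CPM in Gzma-high cells of the same libraries, and at 53.6, 133 and 263 CPM in Gzma-low cells of MFP 1 to 3 against 78.4, 135 and 246 CPM in Gzma-high cells. Gzma-low cells were lower in all 3 BrM libraries and close to Gzma-high cells in MFP (interaction log2 fold change -1.92, SE 0.32, edgeR adjusted p = 0.0166). The call was lost without BrM 1 (adjusted p = 0.102), BrM 2 (0.629), MFP 1 (0.170), MFP 2 (0.793) or MFP 3 (0.167), and held without BrM 3 (0.000128). Without the cells of high doublet scores the value was -0.90. In Gzma-high cells alone BrM against MFP gave 0 of 9121 genes in edgeR, 496 at an unadjusted p under 0.05 and 15 in DESeq2.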

How the data were processed

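Sorted CD45-positive tumour leukocytes from 6 libraries, 3 per site, were analysed. The authors deposited unnormalized UMI counts for each gene in each barcode, made with Cell Ranger 4.0 on mm10 per the submitters' processing notes. All 32285 genes were read, and no cell type annotation was used. The members and gene lists were chosen with earlier results of these data known, and no list is independent evidence of its direction.

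Counts were summed per library and group and tested with edgeR 4.0.16 (R 4.3.3; TMM, filterByExpr, quasi-likelihood test, two-sided, Benjamini-Hochberg at 0.05). Gzma-low was set against Gzma-high with the library as a block, and BrM against MFP without covariates; sums of under 20 cells were left out of the planned site test. The 9 gate genes were left out of tests. Alternatives were DESeq2 1.42.0, no filter, each library left out, and Gzma limits of 5 and 20. Another left out the highest 7% of Scrublet scores (scanpy 1.11.5), with no doublet removal in the main result. Cells with UMIs of other cell types, left out in a further alternative, were those with Cd3g, Cd79a, C1qa, C1qb, Lyz2, S100a8, S100a9 or Krt18. The last thinned cells to 3000 UMIs and applied the gate again to the thinned counts. Shares were compared by exact permutation (scipy 1.17.1). CPM levels divide by the UMIs of all genes. Named genes were the 12 largest called changes per direction with the same sign in all libraries and at least 50 CPM, leaving out predicted, mitochondrial, ribosomal and immunoglobulin genes, the gate genes, the up to 4 largest changes of each list and, for the sites, called genes or the 10 with the lowest p; genes outside this rule were chosen after their values were seen. Not every gene the rule names is reported here. Coordinates are from GENCODE M21 (GRCm38) and promoters from RefSeq. The tests were tried on data simulated with a fixed spread and without library or single-cell effects. That trial cannot show how they behave on these libraries.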

Additional observations from a re-analysis of the deposited data

Results flagged for a closer look

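For Cd74, the invariant chain of MHC class II, the difference between Gzma-low and Gzma-high NK cells itself differed between BrM and MFP (interaction log2 fold change -1.92, edgeR adjusted p = 0.0166). Gzma-low cells had 25.4, 131 and 109 CPM in BrM 1 to 3, against 157, 640 and 238 CPM in Gzma-high cells of the same libraries. In MFP 1 to 3 they had 53.6, 133 and 263 CPM, against 78.4, 135 and 246 CPM. Its partner H2-Aa was at 14.5, 60.5 and 128 CPM in Gzma-low cells of BrM against 82.4, 404 and 168 CPM in Gzma-high cells, and at 6.70, 57.6 and 114 CPM in MFP against 34.7, 68.6 and 145 CPM. Both are products of antigen-presenting cells. The Cd74 value was -0.90 without cells of high doublet scores and -1.95 without cells that carried UMIs of other cell types, and neither passed (adjusted p = 1.00 in both).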

How the results depend on the processing

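Named genes kept their direction in 397 of 399 alternative values for Gzma-low against Gzma-high and their side of the threshold in 367. They had been chosen as called with the same sign in all 6 libraries. Keeping the direction in fewer libraries was therefore largely fixed by that choice. Settings in which a gene fell below the filter are not counted. H2-Aa turned, to 1.04 with a Gzma limit of 20 and 0.58 after thinning. Of 270 genes called, the count was 51 without cells carrying UMIs of other types, 63 after thinning, 75 without the library block, 10 in BrM 2, BrM 3 and MFP 3 alone, 175 without the cells lacking Gzma, and 139 to 321 with 1 library left out. Thinned sums, and sums without the cells left out for UMIs of other types, hold fewer UMIs (1491 and 2347 genes tested). Thinned cells were also gated again. The cause was otherwise not tested.

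The 25 genes between the sites became 1 with DESeq2, 0 without a filter, 13 and 0 with Gzma limits of 5 and 20, and 7 after thinning. With all 6 libraries there was 1 (0 with DESeq2, 3 with library kind as a term, Hspa1a and Hsph1 among them, 1 with the replicate block), with 0 to 5 when 1 library was left out, and 13 in BrM 2, BrM 3 and MFP 3 alone. The planned fit with the replicate block or library kind, or without BrM 1, MFP 1 or MFP 2, could not be fitted. Site values that turned with 1 of the 6 libraries left out were Hspa1a (-0.60 without BrM 1, up to 2.14), Klrb1b (-0.31 to 0.80), Hspa1b (-0.33 to 1.08), Cd74 (-1.26 to 0.13), Rgs1 (-0.57 to 0.21) and Gzmc (-3.47 without BrM 3, up to 2.12). In BrM 2, BrM 3 and MFP 3 alone they were Rora (-2.41), Klrb1b (-0.78), Amd1 (-0.13), Gzmc (1.64), Ifng (0.017), Kpna1 (1.57), Icam1 (0.38) and Rgs1 (1.11). With a Gzma limit of 20 they were Gzmc (2.83), Kpna1 (0.048) and Cd74 (0.42), and with 5 Hsph1 (-0.0064). After thinning Ccl4 turned (0.16). With all 6 libraries Gzmc (1.39) turned, and in DESeq2 Rora (-0.028), Gzmc (1.46) and Kpna1 (0.10).

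The interaction gave 0 with DESeq2, 6 without a filter, 2 with a Gzma limit of 20, 0 without high doublet scores, 0 without cells carrying UMIs of other types, 5 after thinning, 2 with library kind as a term, 7 and 3 within each kind of library, and 0 to 3 with 1 library left out. BrM against MFP in Gzma-high cells gave 0, against 15 with DESeq2, 12 with the replicate block, 11 with library kind as a term and 203 in the lymphoid-rich libraries alone. Whether replicate numbers pair the libraries was not settled. Same-numbered deviations correlated at 0.065, -0.041 and 0.048 in Gzma-low cells and at 0.26, -0.061 and 0.11 in Gzma-high cells, not all above 0.1. Deviations from means of 3 libraries per site, some with few cells, cannot exclude pairing.

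The share difference of 7.23 points ran from 3.62 (without the cells lacking Gzma) to 10.9 over the other settings. With 1 library left out it ran from 2.96 to 12.4, and the BrM mean was higher each time. These settings mixed both kinds of library. Among the lymphocyte-rich libraries BrM 1 (4.62%) lay below MFP 1 (5.30%) and MFP 2 (9.05%). Among the macrophage-rich libraries BrM 2 (23.5%) and BrM 3 (16.7%) lay above MFP 3 (8.70%). Cell number limits precision, with under 20 Gzma-low cells in 3 of 6 libraries. Site and library kind are partly confounded, since 2 of 3 BrM but 1 of 3 MFP libraries were macrophage-rich. The all-library fits, library kind and cells lacking Gzma were chosen after the data were seen.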
